A study of Populus alba x Populus glandulosa with 12 samples.

Results

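The genes described here are the hybrid poplar homologs of Arabidopsis regulators of organ size, measured by RNA sequencing in leaves of Populus alba × P. glandulosa. A gene was taken when the deposited table assigned it to 1 of 10 Arabidopsis loci. These loci were BIG BROTHER (BB, AT3G63530), DA1 (AT1G19270), DA2 (AT1G78420), UBP15 (AT1G17110), PEAPOD1 (PPD1, AT4G14713), PEAPOD2 (PPD2, AT4G14720), STERILE APETALA (SAP, AT5G35770), AINTEGUMENTA (ANT, AT4G37750), KLUH (KLU, AT1G13710) and EOD3 (AT2G46660). Of 34749 genes in the table, 22 met this rule, and they covered 7 of the 10 loci: 4 genes for BB, 3 for DA1, 2 each for DA2, UBP15 and PPD2, 5 for ANT and 4 for EOD3. KLU, PPD1 and SAP were not analysed here. The 3 groups, with 4 leaf libraries each, were line 2 and line 7 of poplar overexpressing (OE) the C2H2-type zinc finger protein PagSUPa, and nontransgenic controls (CK). The transgene's promoter and the plants' age are not stated in the labels. The study's title places PagSUPa in the negative regulation of cell division during leaf development.

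How large an Arabidopsis leaf or petal grows depends on how long its cells keep dividing, and these loci act on that period. BB and DA2 are RING-type ubiquitin ligases that switch on the peptidase DA1, and DA1 in turn cleaves the growth-promoting ubiquitin protease UBP15, so that BB, DA1 and DA2 limit growth. The PEAPOD proteins restrain the division of dispersed meristematic cells in the leaf and are marked for breakdown by the F-box protein SAP. ANT, a transcription factor of the AP2 family, and the CYP78A cytochrome P450 enzymes KLU and EOD3 (also called CYP78A6) prolong growth. These roles are known from Arabidopsis and have not been tested here for the poplar genes.

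Values are TPM, a unit of transcript abundance scaled to each gene's length and to a fixed total in each library, so the sequencing depth of a library is unknown. Fold changes are differences of the mean log2(TPM + 1), tested with limma over the 24926 genes with at least 1 TPM in at least 4 libraries. Adjusted p-values (Benjamini-Hochberg) cover all of these genes, and a gene is called at an adjusted p under 0.05. The labels do not say whether the 4 libraries of a group came from separate plants, so p-values measure the spread between libraries, which may be technical. No gene used here carries the name PagSUPa or SUPERMAN, and the overexpressed gene was not checked.

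Some library features touch every result below. CK replicates 1 and 2 stood apart from CK replicates 3 and 4: both lay above the other CK libraries for 17 of the 22 genes and below them for 3. The same count over all genes was not made, but the offset was not limited to these genes. Over tested genes above 0 in every library, the median ratio to each gene's geometric mean was 1.20 and 1.18 in CK replicates 1 and 2. In CK replicates 3 and 4 it was 0.975 and 0.990. Many results are therefore also given without CK replicates 1 and 2, though not every count or list below. The leaf label was checked against mesophyll markers, of which 12 genes for 6 of 10 loci were present. Their summed level was 39797 to 80214 TPM in OE libraries and 83413 to 97121 TPM in CK libraries, led by homologs of LHCB1.4 and RBCS1A, while both RBCS2B genes stayed at or under 54.5 TPM. Of the 11 mesophyll genes tested, 5 fell (45.5%, against 34% of all genes tested) and 1 rose (9.09%, against 22.1%) in OE leaves. The 5 genes of the shoot meristem list (STM, WUS and KNAT1) summed to at most 0.542 TPM in every library. Of 11 genes for senescing leaves, the 8 SAG12 genes were near 0, at most 0.332 TPM, and the list summed to 45.6 to 108 TPM in OE libraries and 33.2 to 80.5 TPM in CK libraries. The 10 cell division genes, found for 5 of 8 loci, were the mitotic cyclins, B-type kinases and the cytokinesis syntaxin KNOLLE. They had summed levels of 6.02 to 33.8 TPM in OE libraries and 21.7 to 80.7 TPM in CK libraries, and 7 of the 8 tested (87.5%, against 34% of all genes tested) were lower in both OE lines taken as 1 group. In line 2, 5 of the 8 were lower (62.5%, against 32.4% of all genes tested). In line 7, 1 of the 8 was lower (12.5%, against 24.8%). The size of the fall was similar, with a median log2 change of -1.02 for line 2 and -0.95 for line 7. Between the lines 0 of the 8 genes were called, so the unlike counts do not show that the lines differ. The 10 cell division genes summed to 80.7 and 55.7 TPM in CK replicates 1 and 2. In CK replicates 3 and 4 they summed to 21.7 and 29.0 TPM. In whole leaves, fewer cells of a type and less RNA per cell cannot be told apart.

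Across the 21 genes within the filter, 12 were called between both OE lines and CK, 10 of them lower and 2 higher in OE leaves. Over all genes tested, 56.1% were called, 34% lower and 22.1% higher. The members' shares were 57.1%, 47.6% and 9.52%, so the count as a whole was near that of all genes. After median ratio scaling, 9 members were lower and 2 higher, and all genes split into 7093 lower and 7231 higher calls, against 8469 and 5511 without it. The median log2 change was -0.42 for the 21 genes and -0.13 for all genes tested. All 8 OE libraries lay below all 4 CK libraries for 5 of the 21 genes (23.8%, against 19.1% of all genes tested), and all lay above for 1 gene (4.76%, against 14.6%). For 5 of the 21 genes, only the group with the higher level carried the gene through the filter, with fewer than 4 libraries at 1 TPM or more in the other group: BB Potri.009G062100 and Potri.001G267700, and EOD3 Potri.003G146800, Potri.002G175200 and Potri.014G102700. For such genes the filter itself favours a difference, so their calls add no support, and 4 of them were called (3 lower and 1 higher). The other 16 held 8 calls, 7 lower and 1 higher. By locus, all 4 BB genes were lower, neither DA2 gene was called, and the DA1 and EOD3 copies moved in opposite directions. Without CK replicates 1 and 2, 7 of the 21 genes were called (33.3%), 6 of them lower in OE leaves (28.6%). Calls over all 24926 genes tested then numbered 7430, of which 3543 were lower.

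**Figure D1:**
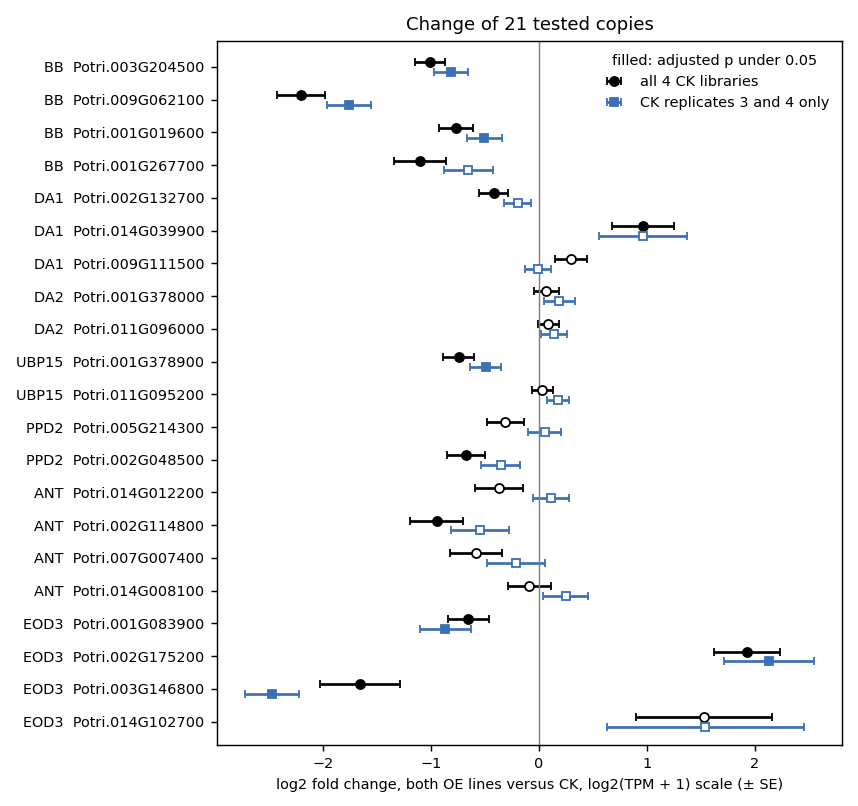
Log2 change of each of the 21 tested genes in both OE lines versus CK, on the log2(TPM + 1) scale, with bars for the SE; black circles use all 4 CK libraries, blue squares CK replicates 3 and 4 only, and filled markers are genes called at an adjusted p under 0.05. The 4 BB genes lie left of 0, with Potri.009G062100 farthest at -2.21, the DA2 genes sit close to 0, and EOD3 Potri.002G175200 lies farthest to the right, at 1.93 with all CK libraries and 2.13 with CK replicates 3 and 4.

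The homologs of BB, the ligase whose loss gives larger organs in Arabidopsis, were lower in both overexpression lines. Potri.009G062100 was at 0.534, 0.329, 0.377 and 0.477 TPM in line 2 and at 0.615, 1.38, 0.302 and 0.514 TPM in line 7, against 9.66, 7.81, 3.57 and 4.92 TPM in CK. The highest OE library, line 7 replicate 2, was still under the lowest CK library. This gene averaged 0.565 ± 0.344 TPM in OE leaves (SD, n = 8) and 6.49 ± 2.75 TPM in CK leaves (SD, n = 4), a ratio of means of 0.0871. Its log2 change was -2.21 (SE 0.22, limma adjusted p = 2.53e-05), the largest fall among the 21 genes, and it was -1.76 (adjusted p = 0.000707) without CK replicates 1 and 2. Only 1 OE library reached 1 TPM, so the gene passed the filter through its CK libraries alone, and its call adds no support.

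The most abundant BB gene, Potri.003G204500, was at 2.32, 3.16, 3.18 and 2.79 TPM in line 2 and at 4.27, 4.99, 2.86 and 3.86 TPM in line 7, against 9.88, 8.26, 6.66 and 6.62 TPM in CK. No OE library reached the lowest CK library. The log2 change was -1.01 (SE 0.14, limma adjusted p = 0.000216), and -0.81 (adjusted p = 0.00702) without CK replicates 1 and 2. By line it was -1.19 (adjusted p = 0.000264) in line 2 and -0.83 (adjusted p = 0.0028) in line 7.

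The other BB genes were expressed at lower levels. Potri.001G019600 was at 1.03, 1.64, 1.502 and 1.15 TPM in line 2 and at 1.97, 2.29, 1.25 and 1.53 TPM in line 7, against 4.63, 3.69, 2.61 and 2.53 TPM in CK. Its groups did not overlap, and its log2 change was -0.77 (SE 0.16, limma adjusted p = 0.00198), or -0.50 (adjusted p = 0.0419) without CK replicates 1 and 2. Without them it was called in line 2 (-0.62, adjusted p = 0.03) and not in line 7 (-0.39, adjusted p = 0.142). Potri.001G267700 was at 0.571, 0.288, 0.883 and 0.098 TPM in line 2 and at 0.741, 0.844, 0.159 and 0.606 TPM in line 7, against 4.28, 2.603, 1.20 and 1.52 TPM in CK. These groups did not overlap either, and no OE library reached 1 TPM, so the gene was tested only because of its CK libraries, with a log2 change of -1.10 (SE 0.24, limma adjusted p = 0.00286). That call was lost without CK replicates 1 and 2 (-0.65, adjusted p = 0.056), as were those in line 2 (-0.72, adjusted p = 0.0583) and line 7 (-0.59, adjusted p = 0.119).

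Summed over its 4 genes, BB was at 6.06 ± 1.77 TPM in OE leaves (SD, n = 8) and 20.1 ± 6.63 TPM in CK leaves (SD, n = 4), which is 0.301 of the CK mean. The make-up of the BB transcripts differed between the groups. Potri.009G062100 made up 9.01% ± 3.04 of the BB transcripts in OE leaves and 31.5% ± 4.27 in CK leaves, while Potri.003G204500 made up 57.0% ± 4.09 in OE leaves and 40.4% ± 5.72 in CK leaves. For 24 pairs of copies of 1 locus, an exact two-sided permutation test compared the copies' difference in log2(TPM + 1) between OE and CK libraries. On this scale a gap in level alone can give unlike changes. BB Potri.003G204500 and Potri.001G019600 had OE to CK ratios of means of 0.436 and 0.459. Their changes still differed by -0.24 (exact permutation adjusted p = 0.00485). On the same scale Potri.009G062100 fell more than each of the other 3 BB genes. Its log2 change minus that of Potri.001G019600 was -1.44 and minus that of Potri.001G267700 was -1.11, and the change of Potri.003G204500 minus its own was 1.20, each with adjusted p = 0.00485. The unadjusted p of 0.00202 is the smallest this design allows. Potri.009G062100 and Potri.001G267700 averaged 0.565 and 0.524 TPM in OE leaves, so only their CK levels brought them over the mean of 1 TPM required for pairs. The tests of their pairs therefore add no support for an unequal fall. In all 4 BB genes CK replicates 1 and 2 were the highest CK libraries, and in 3 of them line 7 replicate 2 was the highest OE library. The cell division genes had the same 3 libraries at their highest summed levels, and their part in the BB differences was not tested.

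**Figure D2:**
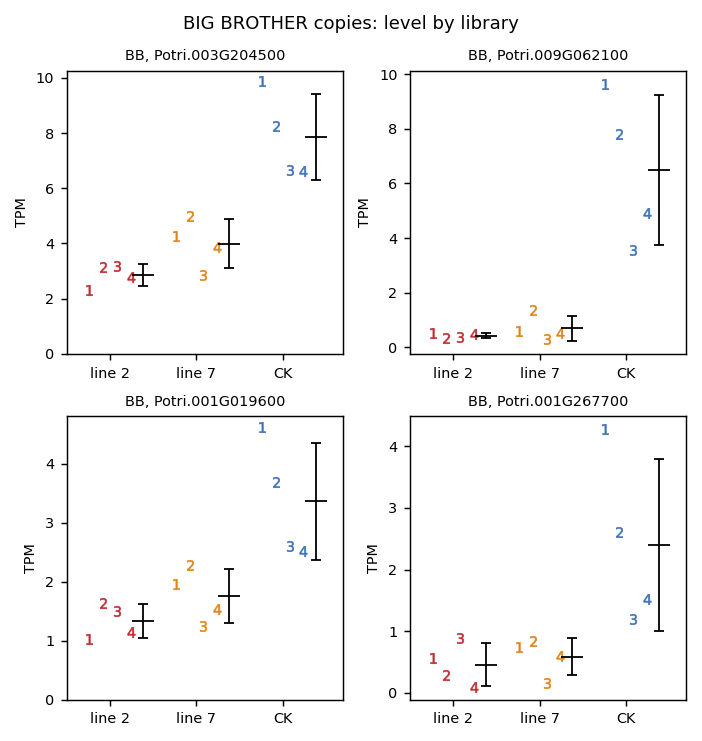
TPM of the 4 BB genes in line 2, line 7 and CK; each numeral is a library, named by its replicate number, and the bars give the group mean and SD (n = 4). The OE libraries lie below the CK libraries in every panel, and CK replicates 1 and 2 are the highest in each.

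DA1, the ubiquitin-dependent peptidase, had 1 copy lower and 1 copy higher in both OE lines taken as 1 group. Potri.014G039900 was at 2.72, 6.17, 4.40 and 13.3 TPM in line 2 and at 3.81, 6.94, 4.64 and 5.36 TPM in line 7, against 1.82, 2.85, 2.47 and 2.09 TPM in CK. Only line 2 replicate 1 fell within the CK range. The log2 change was 0.96 (SE 0.29, limma adjusted p = 0.0147), with 1.04 (adjusted p = 0.0227) in line 2 and 0.89 (adjusted p = 0.048) in line 7. Without CK replicates 1 and 2 it was 0.97 and not called (adjusted p = 0.0984). The call in line 2 was lost without CK replicate 1 (0.96, adjusted p = 0.0588), line 2 replicate 2 (1.01, adjusted p = 0.0523) or CK replicates 1 and 2 (1.04, adjusted p = 0.107). The call in line 7 alone was lost when any of 10 single libraries was left out, with 1.003 (adjusted p = 0.0515) without line 7 replicate 1 and 0.82 (adjusted p = 0.111) without CK replicate 1 as its extremes of adjusted p.

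Potri.002G132700 was at 3.43, 3.63, 4.42 and 4.64 TPM in line 2 and at 3.67, 4.13, 4.51 and 4.94 TPM in line 7, against 7.96, 6.17, 4.91 and 4.89 TPM in CK. Line 7 replicate 4 was above CK replicates 3 and 4, so the groups overlapped slightly. The log2 change was -0.42 (SE 0.13, limma adjusted p = 0.0195), and this call rested on CK replicates 1 and 2. Leaving out CK replicate 1 gave -0.29 (adjusted p = 0.0711), leaving out CK replicate 2 gave -0.40 (adjusted p = 0.0541), and leaving out both gave -0.20 (adjusted p = 0.257). By line, the gene was called in line 2 (-0.46, limma adjusted p = 0.0272) and not in line 7 (-0.38, adjusted p = 0.0641). Among other settings, the line 2 call was lost without CK replicate 1 (-0.33, adjusted p = 0.0733) or CK replicate 2 (-0.44, adjusted p = 0.0632). Leaving out line 2 replicate 1 (-0.40, adjusted p = 0.0672) or line 2 replicate 2 (-0.42, adjusted p = 0.0701) also lost it. So did median ratio scaling (-0.29, adjusted p = 0.063) and leaving out CK replicates 1 and 2 together (-0.24, adjusted p = 0.222). Line 7 was called without CK replicate 3 (-0.45, adjusted p = 0.0442) or CK replicate 4 (-0.45, adjusted p = 0.046).

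The third DA1 gene, Potri.009G111500, averaged 2.42 ± 0.302 TPM in OE leaves and 1.84 ± 0.707 TPM in CK leaves. It was not called, with a log2 change of 0.30 (95% confidence interval -0.03 to 0.63, limma adjusted p = 0.108). In CK it was at 1.04 and 1.45 TPM in replicates 1 and 2 and at 2.37 and 2.49 TPM in replicates 3 and 4. Its change was -0.01 without replicates 1 and 2, and it was called without CK replicate 4 (0.41, adjusted p = 0.0438).

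The DA1 total was 12.5 ± 3.42 TPM in OE leaves (SD, n = 8) and 10.1 ± 0.623 TPM in CK leaves (SD, n = 4), while its make-up differed. Potri.002G132700 held 34.6% ± 6.18 of DA1 transcripts in OE leaves and 58.6% ± 10.7 in CK leaves. Potri.014G039900 held 44.8% ± 10.9 in OE leaves and 22.9% ± 4.57 in CK leaves. The log2 change of Potri.002G132700 minus that of Potri.014G039900 was -1.38 (exact permutation adjusted p = 0.00485). No OE library had a DA1 share of Potri.002G132700 as high as the lowest CK library (40.7% against 50.3%).

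DA2, the other ligase that acts on DA1, showed no difference beyond the spread between libraries. Potri.001G378000 was at 12.6, 12.9, 12.3 and 15.8 TPM in line 2 and at 12.4, 11.6, 16.5 and 14.7 TPM in line 7, against 14.5, 13.5, 11.6 and 11.8 TPM in CK. The log2 change of 0.07 had a 95% confidence interval of -0.18 to 0.32 (limma adjusted p = 0.617). Potri.011G096000 averaged 4.14 ± 0.486 TPM in OE leaves and 3.82 ± 0.219 TPM in CK leaves, with an interval of -0.12 to 0.30 (adjusted p = 0.453). The share of DA2 transcripts from Potri.001G378000 was 76.6% ± 2.05 in OE leaves and 77.0% ± 1.05 in CK leaves. When the libraries were rescaled by median ratios, both DA2 genes were 0.21 higher in OE leaves and neither was called (adjusted p = 0.118 for Potri.001G378000 and 0.0638 for Potri.011G096000).

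UBP15, the growth-promoting substrate of DA1, was lower in OE leaves in its abundant copy. Potri.001G378900 was at 7.88, 6.72, 7.17 and 5.01 TPM in line 2 and at 7.16, 8.15, 7.16 and 6.57 TPM in line 7, against 15.4, 14.2, 9.80 and 10.5 TPM in CK. All OE libraries lay below all CK libraries, and CK replicates 1 and 2 were the highest. The log2 change was -0.74 (SE 0.14, limma adjusted p = 0.00134), and -0.49 (adjusted p = 0.0316) without CK replicates 1 and 2. By line and without those 2 libraries, it was called in line 2 (-0.55, adjusted p = 0.032). It was then not called in line 7 (-0.44, adjusted p = 0.0795), where all libraries gave -0.69 (adjusted p = 0.0071). The minor copy, Potri.011G095200, averaged 1.64 ± 0.165 TPM in OE leaves and 1.58 ± 0.299 TPM in CK leaves and was not called, with an interval of -0.18 to 0.25 (adjusted p = 0.785).

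The change differed between the UBP15 copies, with that of Potri.001G378900 minus that of Potri.011G095200 at -0.78 (exact permutation adjusted p = 0.00485). Potri.001G378900 supplied 80.8% ± 2.63 of UBP15 transcripts in OE leaves and 88.7% ± 0.435 in CK leaves, and the highest OE library (82.8%) was below the lowest CK library (88.3%). The UBP15 total was 8.61 ± 1.01 TPM in OE leaves and 14.1 ± 3.03 TPM in CK leaves.

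PPD2, which restrains late divisions in the Arabidopsis leaf, had 1 of its 2 copies called. Potri.002G048500 was at 2.34, 2.21, 3.38 and 1.83 TPM in line 2 and at 2.59, 3.37, 2.07 and 2.15 TPM in line 7, against 5.90, 5.90, 3.18 and 3.66 TPM in CK. Line 2 replicate 3 and line 7 replicate 2 were above CK replicate 3, so the groups overlapped. The fitted change was -0.68 (SE 0.18, limma adjusted p = 0.00738) and was not called without CK replicates 1 and 2 (-0.35, adjusted p = 0.16). In line 7 it was -0.65 (adjusted p = 0.0239), and that call was lost without CK replicate 1 (-0.55, adjusted p = 0.0692), CK replicate 2 (-0.55, adjusted p = 0.0705), line 7 replicate 3 (-0.59, adjusted p = 0.0633) or line 7 replicate 4 (-0.60, adjusted p = 0.0628).

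The more abundant copy, Potri.005G214300, was at 3.74, 3.93, 4.96 and 3.08 TPM in line 2 and at 4.01, 5.23, 3.63 and 4.42 TPM in line 7, against 7.11, 7.10, 3.68 and 4.11 TPM in CK. Only CK replicates 1 and 2 stood above the OE libraries, and the change was not called (-0.31, 95% confidence interval -0.69 to 0.07, limma adjusted p = 0.148). It was called without CK replicate 3 (-0.45, adjusted p = 0.0465) and was 0.05 without CK replicates 1 and 2. The ratio between the PPD2 copies differed without overlap. Potri.005G214300 held 62.5% ± 2.46 of PPD2 transcripts in OE leaves and 53.9% ± 0.845 in CK leaves, with the lowest OE library at 59.5% and the highest CK library at 54.6%. The log2 change of Potri.005G214300 minus that of Potri.002G048500 was 0.37 (exact permutation adjusted p = 0.00485).

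ANT, which keeps cells competent to divide, was represented by 5 genes of low level. Potri.002G114800 was at 0.744, 1.04, 1.42 and 1.49 TPM in line 2 and at 2.11, 3.78, 1.25 and 1.31 TPM in line 7, against 6.24, 4.68, 2.31 and 3.11 TPM in CK. Line 2 was below every CK library, and line 7 replicate 2 lay inside the CK range. In log2 terms the change was -0.94 (SE 0.24, limma adjusted p = 0.00726) for both lines, -1.18 (adjusted p = 0.00581) for line 2 and -0.71 (adjusted p = 0.0594) for line 7. Line 7 was called without CK replicate 3 (-0.90, adjusted p = 0.0269) or line 7 replicate 2 (-0.94, adjusted p = 0.0156). For both lines it was not called without CK replicates 1 and 2 (-0.55, adjusted p = 0.153).

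Potri.007G007400 was at 0.951, 2.095, 1.46 and 1.03 TPM in line 2 and at 2.45, 3.78, 1.24 and 1.71 TPM in line 7, against 3.65, 4.99, 1.96 and 2.36 TPM in CK. It was called in line 2 (-0.80, limma adjusted p = 0.0306), and neither in line 7 (-0.37, adjusted p = 0.29) nor in both lines together (-0.58, adjusted p = 0.0553). The test of line 7 against line 2 for this gene gave 0.43 (unadjusted p = 0.143 in limma), so a difference between the lines was not shown. The call in line 2 was lost without CK replicate 1 (-0.74, adjusted p = 0.0754), CK replicate 2 (-0.61, adjusted p = 0.0924), line 2 replicate 1 (-0.71, adjusted p = 0.0734) or line 2 replicate 4 (-0.73, adjusted p = 0.0742). Both lines together were called without CK replicate 3 (-0.74, adjusted p = 0.0298), line 2 replicate 2 (-0.65, adjusted p = 0.0433) or line 7 replicate 2 (-0.68, adjusted p = 0.0218).

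Potri.014G012200, which had the highest mean of the ANT genes over all 12 libraries but was below Potri.002G114800 in CK (3.84 against 4.08 TPM), was at 1.60, 2.604, 1.88 and 2.74 TPM in line 2 and at 2.53, 3.52, 2.44 and 3.09 TPM in line 7, against 6.68, 4.16, 1.99 and 2.51 TPM in CK. Only CK replicates 1 and 2 were above all OE libraries. The change was not called (-0.37, interval -0.86 to 0.12, limma adjusted p = 0.18), was called without CK replicate 3 (-0.57, adjusted p = 0.0472), and was 0.11 without CK replicates 1 and 2. Potri.014G008100 averaged 1.60 ± 0.533 TPM in OE leaves and 1.80 ± 0.804 TPM in CK leaves (-0.09, interval -0.52 to 0.34, adjusted p = 0.718), with a change of 0.01 after median ratio scaling.

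Potri.005G148400 was below the filter, and no library but CK replicate 1 exceeded 1 TPM. It was at 0.046, 0.163, 0.033 and 0.048 TPM in line 2 and at 0.231, 0.311, 0.080 and 0.185 TPM in line 7, against 1.09, 0.352, 0.132 and 0.288 TPM in CK. An exact two-sided permutation test gave a difference of -0.33 in mean log2(TPM + 1) with p = 0.0242. That difference rested on CK replicate 1, without which it was -0.15 (exact permutation p = 0.133), and it was -0.36 (exact permutation p = 0.0606) without CK replicate 2.

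The ANT total was 7.77 ± 2.85 TPM in OE leaves (SD, n = 8) and 13.4 ± 6.01 TPM in CK leaves (SD, n = 4). CK replicates 1 and 2 were the highest CK libraries for each of the 5 ANT genes, and line 7 replicate 2 was the highest OE library for all 5. The same libraries had the highest summed cell division genes of their groups, line 7 replicate 2 at 33.8 TPM among OE libraries and CK replicates 1 and 2 at 80.7 and 55.7 TPM. The part of the cell division genes in the ANT differences was not tested. The log2 change of Potri.002G114800 minus that of Potri.014G008100 was -0.86 (exact permutation adjusted p = 0.00485), and the change of Potri.014G012200 minus that of Potri.002G114800 was 0.58 (exact permutation adjusted p = 0.0202).

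**Figure D3:**
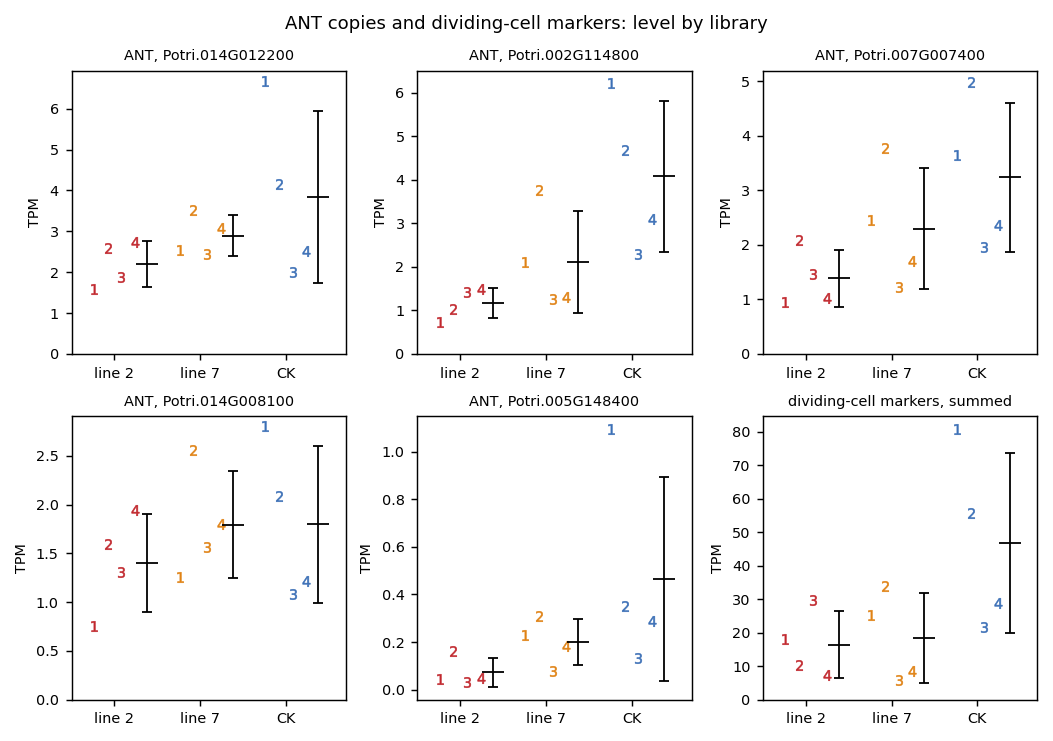
TPM of the 5 ANT genes, and of the 10 cell division genes summed, in line 2, line 7 and CK; each numeral is a library, named by its replicate number, and the bars give the group mean and SD (n = 4). The CK libraries spread widely, for Potri.014G012200 between 1.99 and 6.68 TPM, and line 7 replicate 2 is the highest OE library in every panel.

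EOD3, a CYP78A enzyme that promotes seed and organ growth, gave the largest rise among the called genes. Potri.002G175200 was at 9.47, 10.7, 3.61 and 2.69 TPM in line 2 and at 6.12, 10.8, 9.27 and 10.8 TPM in line 7, against 1.12, 1.96, 0.963 and 0.793 TPM in CK. Every OE library lay above every CK library, the only tested gene of the 21 for which this held. The gene averaged 7.93 ± 3.33 TPM in OE leaves (SD, n = 8) and 1.21 ± 0.516 TPM in CK leaves (SD, n = 4), a ratio of 6.56. Its log2 change was 1.93 (SE 0.31, limma adjusted p = 0.000475), with 1.64 (adjusted p = 0.00336) in line 2 and 2.21 (adjusted p = 0.00085) in line 7. Without CK replicates 1 and 2 it was 2.13 (adjusted p = 0.00678). Only 2 CK libraries reached 1 TPM, so the gene passed the filter through its OE libraries alone, and its call adds no support.

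Another EOD3 gene, Potri.003G146800, was lower in the OE lines. It was at 1.90, 0.815, 0.770 and 1.70 TPM in line 2 and at 0.681, 0.698, 1.64 and 0.509 TPM in line 7, against 1.49, 4.32, 10.03 and 10.4 TPM in CK. CK replicate 1 fell among the OE libraries, so the groups overlapped, and here CK replicates 3 and 4 were the high ones. Its log2 difference was -1.66 (SE 0.37, limma adjusted p = 0.0033), and -2.47 (adjusted p = 0.000359) without CK replicates 1 and 2. Only 3 OE libraries reached 1 TPM, so this gene passed the filter through its CK libraries alone, and its call adds no support.

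The most abundant gene of all 22, the EOD3 gene Potri.001G083900, was at 23.7, 20.7, 18.4 and 23.9 TPM in line 2 and at 20.6, 14.03, 10.6 and 20.4 TPM in line 7, against 23.0, 28.0, 39.5 and 30.2 TPM in CK. Line 2 replicates 1 and 4 exceeded the lowest CK library. This gave a log2 change of -0.65 (SE 0.19, limma adjusted p = 0.0121), called in line 7 (-0.86, adjusted p = 0.00928) and not in line 2 (-0.44, adjusted p = 0.105). The test of line 7 against line 2 gave -0.42 (unadjusted p = 0.0774). The call for both lines was lost after median ratio scaling (-0.51, adjusted p = 0.0688).

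The fourth EOD3 gene, Potri.014G102700, was at 0.098, 6.81, 0.381 and 1.65 TPM in line 2 and at 0.021, 12.2, 1.54 and 3.83 TPM in line 7. In CK it was listed at 0 in 3 libraries and at 0.033 TPM in replicate 2. The OE libraries spread widely, with replicate 2 of each line highest and replicate 1 of line 7 below that CK library. The gene passed the filter only through the OE libraries, and the fitted log2 change of 1.53 (SE 0.63) was not called (limma adjusted p = 0.0568). It was called without line 7 replicate 1 (1.83, adjusted p = 0.0165) without line 2 replicate 1 (1.72, adjusted p = 0.0403) and with a pseudocount of 0.1 in place of 1 (3.65, adjusted p = 0.0187). In line 7 alone it was not called (1.83, adjusted p = 0.0599), but was without line 2 replicate 2 (1.83, adjusted p = 0.0399), without line 7 replicate 1 (2.44, adjusted p = 0.0175) and with a pseudocount of 0.1 (4.04, adjusted p = 0.0301).

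**Figure D4:**
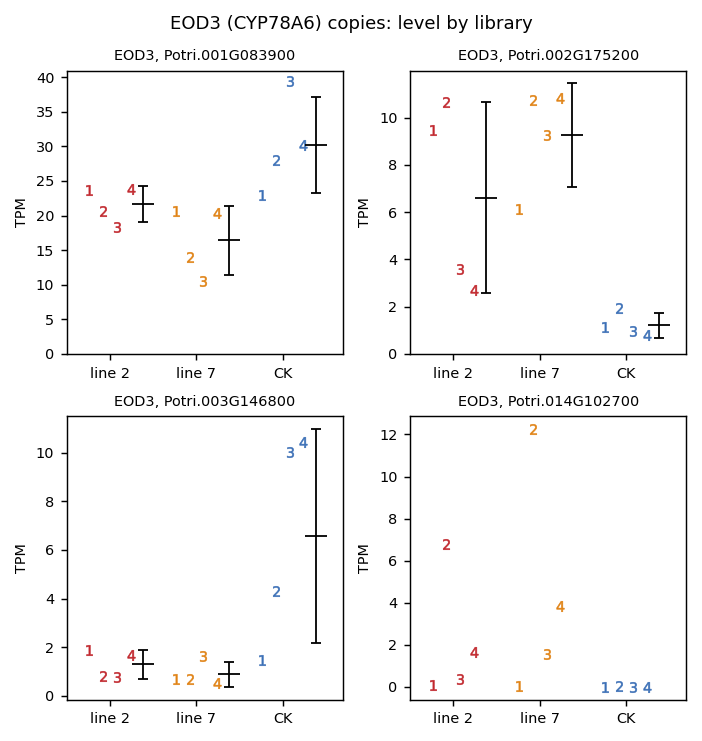
TPM of the 4 EOD3 genes in line 2, line 7 and CK; each numeral is a library, named by its replicate number, and the bars give the group mean and SD (n = 4), left out for Potri.014G102700, which is listed at 0 in 3 CK libraries. Potri.002G175200 is higher in all 8 OE libraries than in CK, Potri.003G146800 and Potri.001G083900 are lower on average, and Potri.014G102700 varies widely in the OE lines.

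The EOD3 total was 31.4 ± 6.38 TPM in OE leaves (SD, n = 8) and 37.96 ± 10.6 TPM in CK leaves (SD, n = 4), with overlapping libraries. Within it, Potri.002G175200 held 25.0% ± 9.52 in OE leaves and 3.47% ± 1.88 in CK leaves, and Potri.003G146800 held 3.67% ± 2.11 in OE leaves and 15.9% ± 8.47 in CK leaves. The log2 change of Potri.002G175200 minus that of Potri.003G146800 was 3.58 (exact permutation adjusted p = 0.00485), the largest difference among the 24 pairs. Both genes passed the filter only through the group where they were higher, so the test of this pair adds no support. Over all 7 loci, 16 of the 24 pairs of copies differed at an adjusted p under 0.05 on the log2(TPM + 1) scale. Some of these pairs hold genes that passed the filter through 1 group alone, and such pairs add no support. Without CK replicates 1 and 2, 13 pairs did. Pairs of 1 locus share copies, so 1 shifted copy can bring several pairs under the threshold. Copy pairs of other loci were not tested, so these counts have no share over all genes beside them. Pairs that missed the threshold included the DA2 pair (-0.02, adjusted p = 0.846) and EOD3 Potri.002G175200 with Potri.014G102700 (0.39, adjusted p = 0.591). Reads shared between near-identical copies may have been split between them by the authors' quantification, which touches each comparison of copies.

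**Figure D5:**
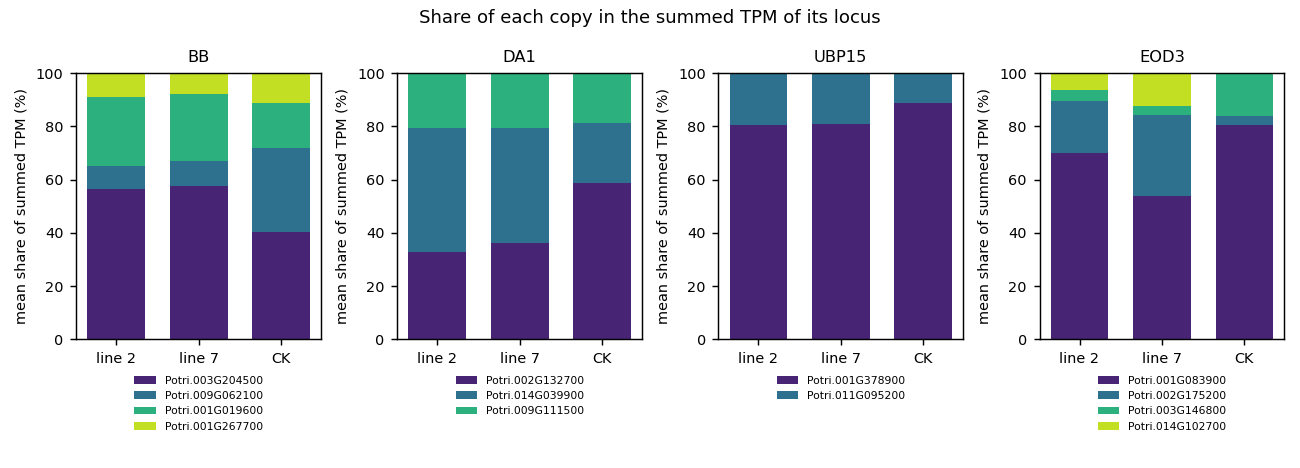
Mean share (percent, n = 4 libraries per bar) of the summed TPM of BB, DA1, UBP15 and EOD3 that came from each poplar copy in line 2, line 7 and CK. Potri.009G062100 makes up 8.74% of BB in line 2 and 9.27% in line 7, against 31.5% in CK, and EOD3 Potri.002G175200 makes up 19.7% in line 2 and 30.4% in line 7, against 3.47% in CK.

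Each OE line was also compared with CK, and the lines with each other. In line 2, 12 of the 21 genes were called, 10 lower and 2 higher, where 51.2% of all genes tested were called, 32.4% lower and 18.8% higher. In line 7, 10 were called, 8 lower and 2 higher, where 43.8% of all genes were called, 24.8% lower and 18.9% higher. These comparisons share the CK libraries. Between line 7 and line 2, limma called none of the 21 genes and 0% of all genes tested. With 4 libraries per line, this does not show that the lines are alike. At an unadjusted p under 0.05, 1 of the 21 genes and 418 of all genes differed. That gene was BB Potri.003G204500, which averaged 3.99 ± 0.892 TPM in line 7 and 2.86 ± 0.402 TPM in line 2 (0.36, unadjusted p = 0.0489).

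By level in TPM, the EOD3 gene Potri.001G083900 came first in each group and DA2 Potri.001G378000 was next in the OE lines, at 13.8 ± 2.26 TPM in line 7 and 13.4 ± 1.61 TPM in line 2. In CK, DA2 Potri.001G378000 (12.8 ± 1.39 TPM) and UBP15 Potri.001G378900 (12.5 ± 2.73 TPM) did not differ beyond their spread. Below them in CK, BB Potri.003G204500, EOD3 Potri.003G146800, BB Potri.009G062100, DA1 Potri.002G132700 and PPD2 Potri.005G214300 lay between 5.50 and 7.86 TPM, each within 1 SD of its neighbour. In OE leaves the BB gene Potri.009G062100 fell near the bottom of that order, at 0.565 TPM.

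The 5 lists of related genes, chosen from Arabidopsis knowledge, were read beside the members. Of 14 tested genes for DA1 substrates and relatives of BB, DA2 and UBP15, 10 fell (71.4%, against 34% of all genes tested) and 0 rose (against 22.1%), with a median log2 change of -0.51. They include UBP16 Potri.002G104800, at 8.62 ± 1.35 TPM in OE leaves and 19.3 ± 5.16 TPM in CK leaves (-1.05, limma adjusted p = 0.00038), and UBP19 Potri.018G011200, at 2.16 ± 0.33 TPM in OE leaves and 3.94 ± 0.395 TPM in CK leaves (-0.65, adjusted p = 0.000369), both ubiquitin-specific proteases. TCP15 Potri.004G046300, a transcription factor that DA1 destabilises in Arabidopsis, averaged 35.0 ± 7.31 TPM in OE leaves and 67.4 ± 7.82 TPM in CK leaves (-0.94, adjusted p = 0.000426). Of 12 tested genes of the DA1 family and its regulators, 4 fell, a share of 33.3% that was near the 34% of all genes tested, and 0 rose, with a median of -0.19. The ubiquitin protease UBP12 (Potri.006G198300) averaged 11.8 ± 1.06 TPM in OE leaves and 19.9 ± 4.63 TPM in CK leaves (-0.69, adjusted p = 0.00117), and the receptor kinase TMK4 (Potri.006G073900) 3.13 ± 1.57 TPM in OE leaves and 10.04 ± 3.59 TPM in CK leaves (-1.45, adjusted p = 0.00177).

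Among the 25 tested partners and targets of SAP and the PEAPODs, 9 fell (36%) and 4 rose (16%), near the 34% and 22.1% of all genes tested, with a median of -0.23. Both named genes for KIX8, the adaptor that joins PEAPOD proteins to the co-repressor TOPLESS, were among those that fell. Potri.006G067100 averaged 5.17 ± 0.421 TPM in OE leaves and 11.5 ± 1.70 TPM in CK leaves (-1.01, limma adjusted p = 2.53e-05), and Potri.018G128700 averaged 2.07 ± 0.313 TPM in OE leaves and 5.33 ± 1.11 TPM in CK leaves (-1.03, adjusted p = 9.99e-05). A gene for the D-type cyclin CYCD3;1 (Potri.002G123000), which drives entry into the cell cycle, was also lower in OE leaves (-1.39, adjusted p = 0.000193).

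Of 13 tested genes of the ANT family and pathway, 5 fell (38.5%, near the 34% of all genes tested) and 1 rose (7.69%, against 22.1%), with a median of -0.20. In line 7, 3 fell (23.1%, against 24.8% of all genes tested) and 1 rose (7.69%, against 18.9%). AIL5 Potri.018G091600, a relative of ANT, averaged 6.15 ± 3.42 TPM in OE leaves and 14.7 ± 5.04 TPM in CK leaves (-1.18, limma adjusted p = 0.00542). ARF2 Potri.003G163600, an auxin response factor that represses ANT in Arabidopsis, averaged 8.03 ± 0.975 TPM in OE leaves and 13.4 ± 4.10 TPM in CK leaves (-0.64, adjusted p = 0.00591). Neither was called without CK replicates 1 and 2 (adjusted p = 0.122 for AIL5 and 0.103 for ARF2). Of 9 genes of the CYP78A family and KLU repressors only 3 passed the filter. Among these, DPA4 Potri.006G208100, a B3-type transcription factor related to a repressor of KLU, rose to 3.32 ± 1.30 TPM in OE leaves, against 1.23 ± 0.396 TPM in CK leaves (0.91, adjusted p = 0.00636), and was not called without CK replicates 1 and 2 (0.79, adjusted p = 0.083). The CYP78A10 genes were not called (adjusted p = 0.1 for Potri.003G173500 and 0.299 for Potri.001G054800), though Potri.003G173500 was without line 2 replicate 1 (0.90, adjusted p = 0.0439).

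The genes whose patterns over the 12 libraries were most like those of the BB, DA1 and ANT copies with the highest mean over all libraries were found among 10047 tested genes with a name, by the root mean square difference of centred log2(TPM + 1). For BB Potri.003G204500 they were the kinase genes CRK (Potri.007G040800, 0.118) and CPK13 (Potri.006G101300, 0.131) and STI (Potri.004G230266, 0.129). CRK averaged 10.3 TPM in line 2, 12.4 TPM in line 7 and 24.03 TPM in CK. For DA1 Potri.002G132700 they were the chromatin remodelling subunit SWI3C (Potri.002G080600, 0.0796), RSZ32 (Potri.006G215200, 0.0828) and XCT (Potri.009G129700, 0.0832). For ANT Potri.014G012200 they were MAP65-1 (Potri.001G356500, 0.144), RBL2 (Potri.001G108700, 0.15) and AGO4 (Potri.006G025900, 0.154). MAP65-1, which bundles microtubules, averaged 12.9 TPM in line 2, 16.5 TPM in line 7 and 21.2 TPM in CK. In OE leaves the DA1 gene Potri.014G039900 (5.92 TPM) was above Potri.002G132700 (4.17 TPM), so the DA1 choice rests on the pooled mean, as does that of ANT. These names depended on the settings: between 0 and 3 of the 3 stayed in a list.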

How the data were processed

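Leaf RNA of 12 libraries was copied from oligo(dT) primers and sequenced as DNA nanoballs, per the labels' protocols. The submitters' processing notes name cutadapt, FastQC and Salmon. Which genome build and annotation were used is not stated there. The authors deposited 1 table of TPM values per gene with the closest Arabidopsis locus, which chose the members. TPM sums to a fixed total in each library, so depth is unknown and no counting intervals are given.

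Groups came from the sample titles. Genes with at least 1 TPM in at least 4 libraries (24926 of 34749) were tested on log2(TPM + 1), which understates the changes of low genes, with limma 3.58.1 (R 4.3.3), moderated with a mean-variance trend and adjusted over all tested genes (Benjamini-Hochberg). The fit used all 12 libraries. Exact two-sided permutation tests were used for the gene below the filter and for 24 pairs of copies of 1 locus, each gene averaging at least 1 TPM, adjusted over the pairs. The limma step was tested on simulated data. Every member is named, with up to 3 genes of smallest p per related list. The members, lists and rules were chosen with earlier results of these data known. Alternatives were pseudocounts of 0.1 and 5, no filter, median ratio scaling, a replicate block, no trend, each library left out, and CK replicates 1 and 2 left out together.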

Additional observations from a re-analysis of the deposited data

Results flagged for a closer look

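In 4 of the 66 groups of 4 libraries, 1 library stood apart from the other 3 by more than Dixon's 95% critical value of 0.829 for the gap over the range. Chance gives about 1 in 20. DA2 Potri.001G378000 was at 15.78 TPM in line 2 replicate 4, above the other line 2 libraries (gap over range 0.838). ANT Potri.005G148400, a gene below the filter, was at 0.163 TPM in line 2 replicate 2 (0.885). EOD3 Potri.003G146800 was at 1.642 TPM in line 7 replicate 3 (0.833), above the other line 7 libraries. EOD3 Potri.014G102700 was at 0.033 TPM in CK replicate 2, where the other 3 CK libraries were listed at 0.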

How the results depend on the processing

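Without CK replicates 1 and 2, members called numbered 7 for both lines, 6 for line 2 and 5 for line 7. Calls over all 24926 genes tested numbered 7430, 6885 and 5013 in the same order. The difference for ANT Potri.005G148400 was then -0.0915 (exact permutation p = 0.422), and -0.442 to -0.146 with single libraries left out. With single libraries left out, members called numbered 11 to 15, 9 to 14 and 8 to 11 in the same order, and 13 to 18 of 24 copy pairs differed. Calls over all genes tested then numbered 11206 to 14000, 10234 to 12689 and 7929 to 11316.

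Signs that turned belonged to changes that were not called. Without CK replicates 1 and 2 these were DA1 Potri.009G111500 (both lines -0.0099, line 7 -0.024), PPD2 Potri.005G214300 (both lines 0.0547, line 7 0.112), ANT Potri.014G012200 (both lines 0.111, line 7 0.256), ANT Potri.014G008100 (both lines 0.248, line 2 0.136) and ANT Potri.007G007400 (line 7 0.0053). Potri.014G008100 was 0.0093 after median ratio scaling, and UBP15 Potri.011G095200 was -0.00013 in line 2 with a pseudocount of 5. With single libraries left out, Potri.011G095200 ranged from -0.0199 to 0.0821 (both lines) and -0.0503 to 0.0517 (line 2), Potri.014G008100 from -0.215 to 0.0738 (both lines) and -0.103 to 0.186 (line 7), Potri.014G012200 from -0.421 to 0.0319 (line 7), and DA2 Potri.001G378000 and Potri.011G096000 from -0.0213 to 0.11 and -0.0107 to 0.132 (line 2).

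Of the copy pairs, BB Potri.003G204500 minus Potri.001G267700 was -0.203 with a pseudocount of 5 (exact permutation adjusted p = 0.0259), -0.157 without CK replicates 1 and 2, and -0.0444 to 0.207 with single libraries left out. The DA2 pair was 0.0063 with a pseudocount of 5, 0.0044 after median ratio scaling, 0.0528 without CK replicates 1 and 2, and -0.0521 to 0.0135 with single libraries left out. EOD3 Potri.002G175200 minus Potri.014G102700 was -1.11 with a pseudocount of 0.1. The causes were not tested. Median ratio scaling moved the median change of all genes to -0.0065, against -0.13.

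Replicate numbers were not taken to pair the libraries, since only 9 of 12 same-number pairs of libraries had a correlation over 0.1, with a range of -0.472 to 0.415, and 5 of 12 libraries correlated best with their own number. With the replicate block, 14 members were called for both lines, 11 for line 2 and 11 for line 7, and 14 copy pairs differed. Calls over all 24926 genes tested numbered 13745, 12527 and 10763 in the same order. The block turned ANT Potri.007G007400 (adjusted p = 0.0106), EOD3 Potri.014G102700 (0.0149, and 0.0176 in line 7) and CYP78A10 Potri.003G173500 (0.0317) into calls, and DA1 Potri.002G132700 in line 2 (0.0567) out of them.

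Depth is unknown, so a level of 0 does not show absence.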
